A study of Mus musculus with 6 samples.

Results

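The genes described here are 31 genes of cholesterol and fatty acid synthesis, measured in cultured B16-F10 mouse melanoma cells. They were taken by name and Ensembl gene identifier from the 39179 genes counted in each library, and all 31 were found. By role, 18 are sterol enzymes, 5 act in SREBP regulation and sterol transport, and 8 form the fatty acid branch. RNA sequencing covered 6 libraries in 2 groups: 3 from cells labelled Sirpa-knockout (Sirpa-KO) and 3 from cells labelled Sirpa-wild type (Sirpa-WT). Sirpa encodes SIRPα, a membrane receptor that binds CD47, and the comparison asks what steady-state expression looks like with and without it. B16-F10 is a melanoma line of C57BL/6 origin. The labels do not say how the knockout was made, or whether either line is a single clone. Nor do they say that the 3 libraries of a group came from different cultures, and a p-value then speaks only of the spread among these 6 libraries, which may be technical. One label names the cell line as Pmel and the source as tumor, whereas the series text describes cells grown in vitro.

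Cholesterol is built from acetyl-CoA through the mevalonate pathway, which yields isoprenoids and then squalene. Squalene is closed to lanosterol and trimmed, step by step, to cholesterol. The transcription factors SREBP-1 and SREBP-2 switch on these enzymes, and those of fatty acid synthesis, when membrane sterol is low: the escort protein SCAP carries them out of the endoplasmic reticulum for cleavage, and INSIG proteins hold them back when sterol is plentiful. Cells in culture run this pathway in balance with the sterol they take up from serum, and dividing tumour cells draw on it for membranes.

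The libraries were of very unequal depth, which limits every value below. Total counts were 29877270, 338824 and 367667 in Sirpa-KO, and 411695, 343808 and 345543 in Sirpa-WT. The first Sirpa-KO library (the deep library; the other 5 are the shallow ones) also stood apart in its profile: across 5397 genes, Pearson's r of log2 CPM (the count scaled to a common library total) was 0.0218 to 0.0972 between it and the other libraries, and 0.919 to 0.944 among those 5. Protein-coding genes took 98.4% of counts in the deep library, against 67.8% to 71.1% in the other 5, where pseudogenes took 27.0% to 30.2% (0.216% in the deep library). One count equals 0.0335 CPM in the deep library and 2.43 to 2.95 CPM in the others. Comparisons are therefore given over 5 libraries, with Sirpa-KO replicates 2 and 3 only, and over all 6. Sirpa itself had 1584, 6 and 6 counts in Sirpa-KO and 12, 7 and 3 in Sirpa-WT, too few in the shallow libraries to check the labels. In CPM the library labelled Sirpa-KO replicate 1 was the highest of all 6 (53.0 CPM, against 8.68 to 29.1 CPM in Sirpa-WT), which goes against its label, although the place of the deletion is not stated and exon counts outside it would check nothing. Any value that rests on the deep library is given with that limit. Melanocyte markers were abundant in each library, and their summed level was lower in the shallow Sirpa-KO libraries (18027, 13553 and 14192 CPM in Sirpa-KO replicates 1 to 3, against 16834 to 20109 CPM in Sirpa-WT over 9 genes, of which 3 were called lower over the 5 shallow libraries). Dct made up most of that difference, with a mean of 4719 CPM in shallow Sirpa-KO against 8828 CPM in Sirpa-WT, and 4 of the 9 had a higher mean CPM in shallow Sirpa-KO. Their part in the lipid gene results was not tested. Markers of adipocytes, cells rich in the same enzymes, summed to at most 0.0335 CPM, and all 4 were at 0 counts in the 5 shallow libraries. Immune markers summed to 9.72 to 32.6 CPM in the shallow libraries, mostly Itgam, and to 4.95 CPM in the deep one. Itgam had 5 and 9 counts in shallow Sirpa-KO and 3, 7 and 5 in Sirpa-WT, against 1 in the deep library, and why was not tested. Fibroblast markers summed to at most 13.6 CPM, keratinocyte markers to 2.95 CPM and endothelial markers to 0.201 CPM.

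The 4 members that fell in the 5-library comparison are Nsdhl, Cyp51, Insig1 and Acat2. Their promoters are shown with that of Hmgcs1, the only member of the 24 below that held a match to the sterol regulatory element searched, because SREBPs act through such windows. The RefSeq promoter table (GRCm38.p6) held 24 of the 31 members; Fdps, Fdft1, Sqle, Stard4, Scd1, Scd2 and Fads1 had no entry. Each run below is the 250 bases before the annotated start, 5′ to 3′ on the gene's strand. Capitals mark CCAAT, the site of NF-Y, a common partner of SREBPs, which reads as ATTGG where it lies on the other strand; CACGTG, an E-box; and TCACNCCAC, a sterol regulatory element. The windows are, for Nsdhl, chrX:72918271-72918520 (plus strand), for Cyp51 chr5:4104698-4104947 (minus strand), for Insig1 chr5:28071162-28071411 (plus strand), for Acat2 chr17:12960726-12960975 (minus strand) and for Hmgcs1 chr13:119690101-119690350 (plus strand).
Nsdhl: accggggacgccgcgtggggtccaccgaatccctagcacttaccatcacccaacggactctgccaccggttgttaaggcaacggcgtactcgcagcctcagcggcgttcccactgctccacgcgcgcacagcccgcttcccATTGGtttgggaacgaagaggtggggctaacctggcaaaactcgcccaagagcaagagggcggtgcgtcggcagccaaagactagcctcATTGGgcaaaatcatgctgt
Cyp51: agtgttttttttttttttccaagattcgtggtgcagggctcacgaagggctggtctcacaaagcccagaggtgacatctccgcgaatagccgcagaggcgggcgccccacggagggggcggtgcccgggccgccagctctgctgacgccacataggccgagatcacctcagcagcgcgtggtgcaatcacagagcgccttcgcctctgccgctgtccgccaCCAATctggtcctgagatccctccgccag
Insig1: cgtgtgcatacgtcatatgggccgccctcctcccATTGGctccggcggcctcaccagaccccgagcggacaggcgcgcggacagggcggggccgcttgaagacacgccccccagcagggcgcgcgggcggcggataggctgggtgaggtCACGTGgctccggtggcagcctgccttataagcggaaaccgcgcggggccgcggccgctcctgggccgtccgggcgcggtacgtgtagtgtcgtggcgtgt
Acat2: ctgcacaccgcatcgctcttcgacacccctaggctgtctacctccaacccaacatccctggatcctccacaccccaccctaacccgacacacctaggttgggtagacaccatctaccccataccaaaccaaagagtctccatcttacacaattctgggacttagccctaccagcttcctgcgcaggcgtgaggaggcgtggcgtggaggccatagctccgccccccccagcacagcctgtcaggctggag
Hmgcs1: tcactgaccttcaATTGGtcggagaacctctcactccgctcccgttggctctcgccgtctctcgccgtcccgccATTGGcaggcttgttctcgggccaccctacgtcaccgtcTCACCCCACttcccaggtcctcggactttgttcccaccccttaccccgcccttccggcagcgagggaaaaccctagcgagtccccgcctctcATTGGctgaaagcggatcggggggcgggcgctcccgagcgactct

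Nsdhl carried CCAAT on the minus strand 109 and 20 bases before the start, and Cyp51 carried it on the plus strand at 29 bases. Insig1 had CCAAT at 216 bases and CACGTG at 101 bases, and the Acat2 window held none of the capitalised motifs. Hmgcs1 held the sterol regulatory element, as TCACCCCAC at 137 bases, with CCAAT on either side. Over both strands, CCAAT was found in 18 of the 24 members and in 37.5% of the 27025 genes with a promoter entry. GGGCGG, a binding site of Sp1 that is not capitalised and was counted whether or not it overlapped another motif, was found in 20 members and 35.4% of genes. CACGTG was found in 5 members (6.86% of genes) and TCACNCCAC in 1 member (1.22% of genes). A form of that element lengthened by an A at its start, with C at the free position, was in 0 members and 0.0814% of genes. These matches describe the letters of the windows and do not show binding. Only these patterns were searched, so a window without a match may still hold another form of the element.

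Per exon length, the most abundant member was Scd2, a stearoyl-CoA desaturase that makes monounsaturated fatty acids. Its level in FPKM (CPM per kilobase of exon) was 168 in the deep library, 68.5 ± 11.1 over both shallow Sirpa-KO libraries (SD, n = 2) and 82.3 ± 13.3 in Sirpa-WT (SD, n = 3). Fdps, which makes farnesyl diphosphate, came next in the deep library at 87.1 FPKM, with 45.0 ± 20.0 in shallow Sirpa-KO and 53.0 ± 15.5 in Sirpa-WT. In Sirpa-WT, Nsdhl (52.5 ± 10.1) and Acat2 (46.6 ± 1.78) stood beside Fdps in FPKM, within its spread. In the deep library both were lower, at 12.7 FPKM for Nsdhl and 13.5 FPKM for Acat2. At the low end in Sirpa-WT were Lss (0.433 ± 0.323 FPKM), Hsd17b7 (1.11 ± 1.53 FPKM) and Tm7sf2 (1.30 ± 0.422 FPKM). The spread of Hsd17b7 covers both others, whereas each Sirpa-WT library was lower for Lss than any was for Tm7sf2, from 1 to 3 counts per library. The 31 levels were ordered alike in shallow Sirpa-KO and Sirpa-WT (Spearman's rho 0.934) and less so in the deep library and Sirpa-WT (rho 0.739). These correlations run across genes that share a pathway and are a description only.

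**Figure D1:**
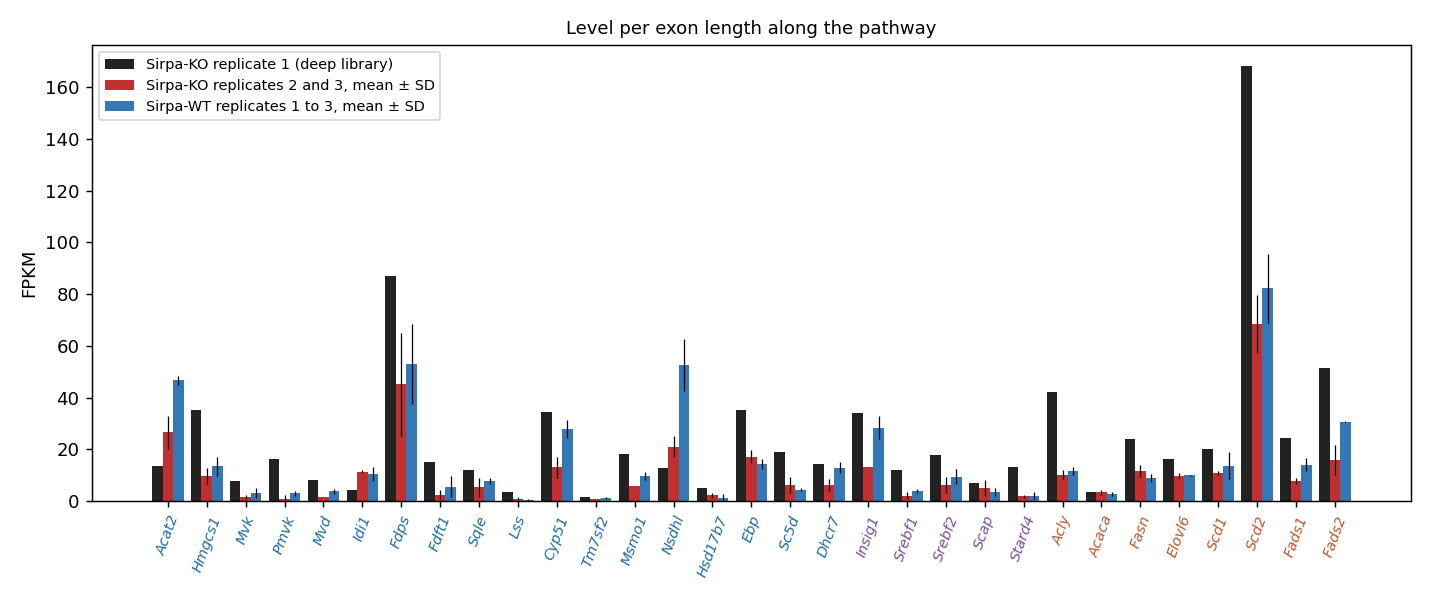
FPKM of each of the 31 members (vertical axis), ordered along the sterol pathway (blue names), SREBP regulation (purple) and the fatty acid branch (orange), in the deep Sirpa-KO library, the 2 shallow Sirpa-KO libraries and the 3 Sirpa-WT libraries, with bars of ± SD where there are replicates. Scd2 and Fdps are the tallest in the deep library, while Nsdhl and Acat2 are tall in Sirpa-WT and low in the deep library.

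Sterol enzymes were lower, as a sum, in the shallow Sirpa-KO libraries. Over all 18 enzymes, whether or not they passed the count filter, the summed level was 452 and 528 CPM in Sirpa-KO replicates 2 and 3, against 782, 771 and 776 CPM in Sirpa-WT replicates 1 to 3. The means were 489.6 ± 53.8 CPM (SD, n = 2) and 776 ± 5.70 CPM (SD, n = 3), a ratio of 0.631, and the groups did not overlap. Most of that difference lay in Nsdhl (mean of 59.8 CPM in shallow Sirpa-KO against 150 CPM in Sirpa-WT), Cyp51 (55.7 against 120) and Acat2 (67.5 against 119). Idi1, Ebp, Lss, Hsd17b7 and Sc5d had higher means in shallow Sirpa-KO. The 5 genes of SREBP regulation and sterol transport summed to 113 ± 5.48 CPM in shallow Sirpa-KO and 175 ± 22.5 CPM in Sirpa-WT, again without overlap. Insig1 made up most of that difference (35.4 against 76.2 CPM), and Scap had a higher mean in shallow Sirpa-KO. The 8 fatty acid genes summed to 752 ± 117 CPM in shallow Sirpa-KO and 856 ± 129 CPM in Sirpa-WT, and those groups overlapped. The deep library stood above all others in each sum, at 983 CPM for sterol enzymes, 357 CPM for SREBP regulation and 1782 CPM for the fatty acid branch. In bulk RNA, fewer cells of a kind and less RNA per cell cannot be told apart.

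**Figure D2:**
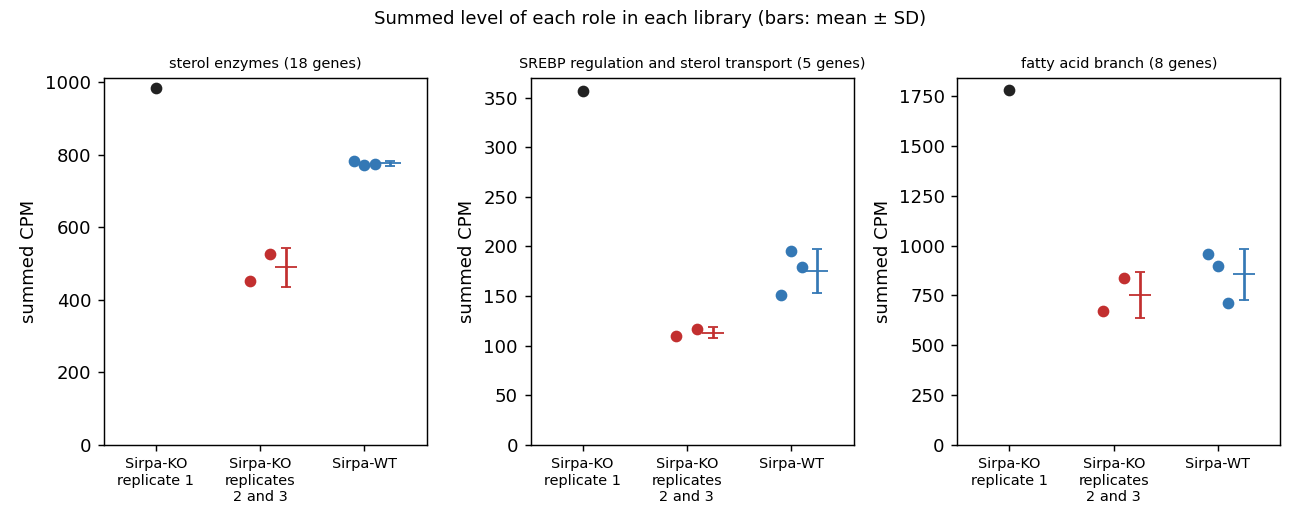
Summed CPM of the 18 sterol enzymes, the 5 genes of SREBP regulation and sterol transport and the 8 fatty acid genes in each library, with mean ± SD beside groups of 2 or 3. Sirpa-KO replicates 2 and 3 lie below each Sirpa-WT library for the first 2 roles and overlap them for the fatty acid branch, and the deep Sirpa-KO library lies highest in all 3.

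Gene by gene, the count filter passed 20 of the 31 members, 6 of them only through the higher Sirpa-WT libraries (Hmgcs1, Sqle, Dhcr7, Srebf2, Fads1 and Fads2). EdgeR's quasi-likelihood test, with Benjamini-Hochberg adjustment over 5510 genes and a threshold of 0.05, found 4 members lower and 0 higher in shallow Sirpa-KO. Among all genes tested, 4.52% were called lower and 1.32% higher (249 and 73 genes; with scaling by library size alone, 128 and 279). By role, the calls were 3 of 10 sterol enzymes tested, 1 of 2 genes of SREBP regulation and 0 of 8 fatty acid genes, and the median log2 fold changes were -0.72, -0.98 and -0.35. The 6 members that passed only through Sirpa-WT were bound to lean lower. The medians by role include them, with Srebf2 as 1 of the 2 genes of SREBP regulation. The counts that follow describe the members that passed and are given again without those 6. The log2 fold change was below 0 for 17 of the 20 members, against 48.8% of all genes, and its median was -0.60, against 0.013. Over the other 14 members it was below 0 for 11, with a median of -0.35. At an unadjusted p under 0.05, 10 members were lower (6 of the 14), against 11.9% of all genes. In 8 of the 20 (5 of the 14) both shallow Sirpa-KO libraries lay below each Sirpa-WT library in CPM, as they did in 11.8% of all genes.

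**Figure D3:**
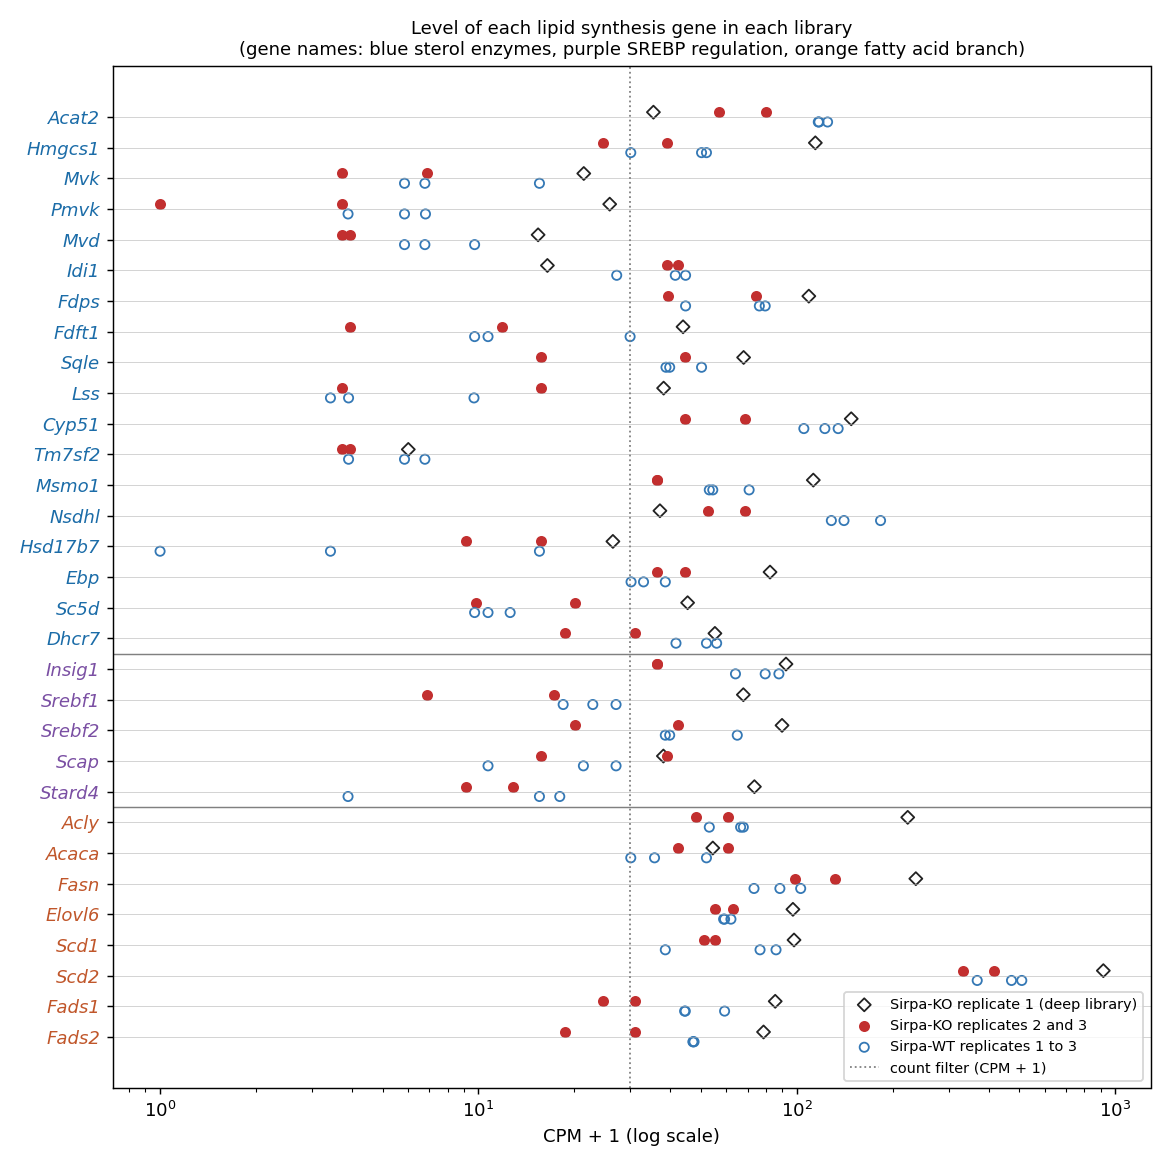
Level of each member in each library (horizontal axis, CPM + 1 on a log scale), with Sirpa-KO drawn above Sirpa-WT in each row and the count filter of 28.9 CPM as a dotted line. Filled Sirpa-KO points lie left of all open Sirpa-WT circles for Acat2, Cyp51, Msmo1, Nsdhl, Dhcr7, Insig1, Fads1 and Fads2 among the members that passed the filter, and the deep library (diamonds) is mostly to the right. Of these, Dhcr7, Fads1 and Fads2 passed the filter only through Sirpa-WT.

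Among the early enzymes, Acat2, a cytosolic thiolase that joins acetyl-CoA units at the entry to the pathway, fell. It had 56.1 and 78.9 CPM (19 and 29 counts) in Sirpa-KO replicates 2 and 3, against 124, 116 and 116 CPM (51, 40 and 40 counts) in Sirpa-WT. Both Sirpa-KO libraries lay under all 3 Sirpa-WT libraries, and the log2 fold change was -0.93 ± 0.25 (SE; adjusted p in edgeR = 0.00859). The deep library was lower still, at 34.4 CPM, but it was low for 41.2% of genes tested, Acat2 among them, as given below.
The mevalonate pathway steps after Acat2 gave no call. Hmgcs1, which makes HMG-CoA, had a log2 fold change of -0.60 ± 0.37, with 23.6 and 38.1 CPM in shallow Sirpa-KO against 29.1 to 51.0 CPM in Sirpa-WT. Idi1, the isopentenyl diphosphate isomerase, stood at -0.03 ± 0.36 and Fdps at -0.31 ± 0.29, and for both the sign turned under some alternatives given in the closing section. Mvk, Pmvk and Mvd, the kinases and decarboxylase between mevalonate and isopentenyl diphosphate, were under the filter with at most 5 counts in each shallow library. Over the pooled shallow counts, Mvk had 3 in Sirpa-KO against 9 in Sirpa-WT, Pmvk 1 against 5 and Mvd 2 against 7. Pooled counts here and below cover Sirpa-KO replicates 2 and 3 against Sirpa-WT replicates 1 to 3. A gene of equal level would thus have fewer pooled counts in Sirpa-KO. In mean CPM, Mvk had 4.31 in shallow Sirpa-KO against 8.40 in Sirpa-WT, Pmvk 1.36 against 4.52 and Mvd 2.84 against 6.46. The deep library resolved all 3, at 20.4, 24.8 and 14.4 CPM.

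In the squalene segment, Sqle, the epoxidase that oxidises squalene, had 14.8 and 43.5 CPM in shallow Sirpa-KO against 37.8 to 49.2 CPM in Sirpa-WT. The 2 Sirpa-KO libraries stood far apart, and the log2 fold change of -0.61 ± 0.38 was not called. Fdft1, squalene synthase, and Lss, which closes the ring to lanosterol, were under the filter. Fdft1 had pooled shallow counts of 5 in Sirpa-KO against 17 in Sirpa-WT, a mean of 6.92 against 15.8 CPM. Lss had 6 in Sirpa-KO against 5 in Sirpa-WT, a mean of 8.74 against 4.67 CPM. The groups overlapped for both.

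Of the enzymes that trim lanosterol, Nsdhl and Cyp51 fell. Nsdhl, a dehydrogenase that helps strip methyl groups from the sterol ring together with Msmo1 and Hsd17b7, had 67.9 and 51.7 CPM (23 and 19 counts) in Sirpa-KO replicates 2 and 3. In Sirpa-WT it had 182, 139.6 and 127 CPM (75, 48 and 44 counts). No Sirpa-KO library reached any Sirpa-WT library, the deep one included (36.1 CPM, from 1080 counts). Nsdhl is, however, among the 41.2% of genes tested that were low in the deep library against the other 5, as given below. The log2 fold change of -1.46 ± 0.25 (SE) had an edgeR adjusted p of 7.59e-07. Cyp51, the lanosterol demethylase that acts earlier in this segment, had 67.9 and 43.5 CPM (23 and 16 counts) in shallow Sirpa-KO against 121, 134 and 104 CPM (50, 46 and 36 counts) in Sirpa-WT. Its groups were separate over these libraries, with a log2 fold change of -1.23 ± 0.27 (SE; adjusted p in edgeR = 0.00027), whereas the deep library stood above each Sirpa-WT library at 147 CPM.
Msmo1, the oxidase that works with Nsdhl, had 35.4 CPM in both shallow Sirpa-KO libraries against 53.4, 69.8 and 52.1 CPM in Sirpa-WT. Although the groups did not overlap, the log2 fold change of -0.83 ± 0.34 missed the threshold (edgeR adjusted p = 0.125). Dhcr7, the reductase of the last step, had 17.7 and 29.9 CPM in shallow Sirpa-KO against 51.0, 40.7 and 55.0 CPM in Sirpa-WT. The groups did not overlap, but the log2 difference, -1.14 ± 0.39, missed the threshold (edgeR adjusted p = 0.0531). Dhcr7 passed the filter only through Sirpa-WT, which favours such a gap. Ebp, the sterol isomerase, did not share the direction: it had 35.4 and 43.5 CPM in shallow Sirpa-KO against 29.1 to 37.6 CPM in Sirpa-WT, and a log2 fold change of 0.15 ± 0.38. Tm7sf2, Hsd17b7 and Sc5d, a reductase, a ketoreductase and a desaturase of this segment, were under the filter. Their pooled shallow counts were 2, 8 and 10 in Sirpa-KO against 5, 6 and 11 in Sirpa-WT, and a difference was not detectable at this depth.

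**Figure D4:**
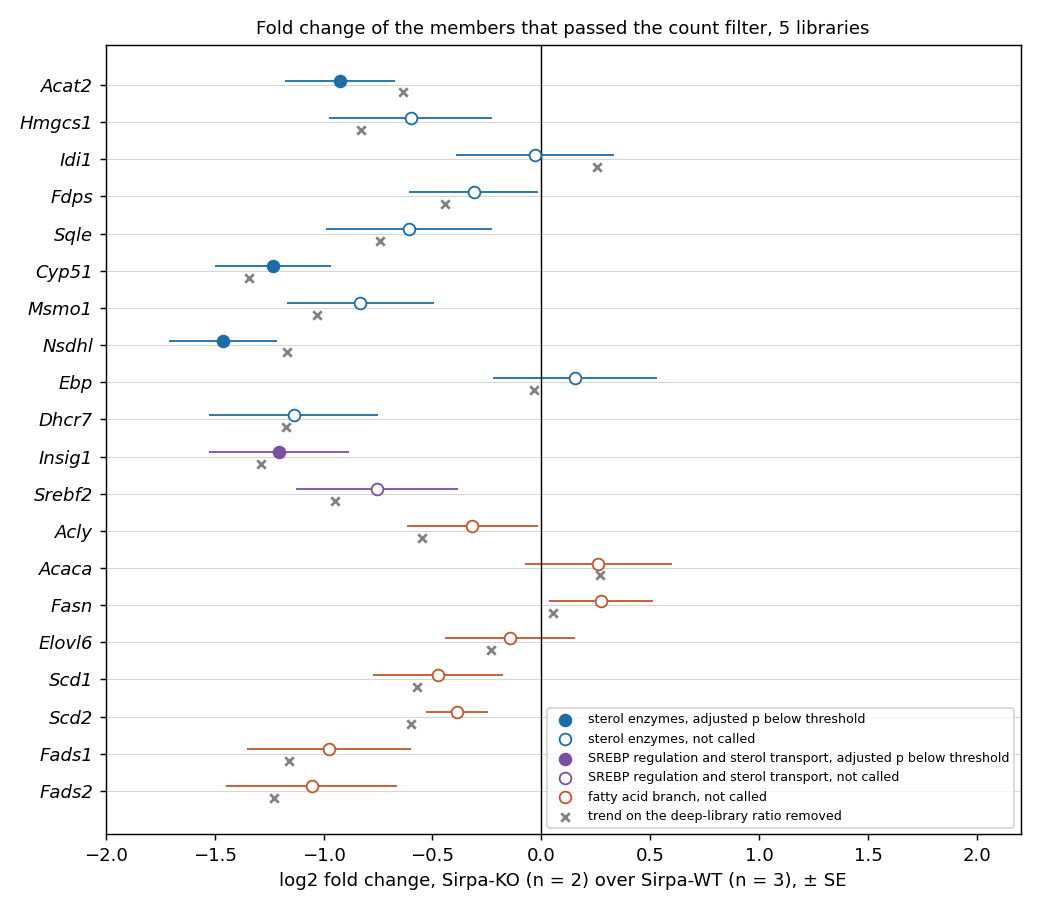
Log2 fold change of the shallow Sirpa-KO libraries (n = 2) over Sirpa-WT (n = 3) with ± SE for the 20 members that passed the count filter, filled where the edgeR adjusted p was under 0.05, with grey crosses for the fit that removes the trend on the deep-library ratio. Nsdhl, Cyp51, Insig1 and Acat2 are filled, and Ebp, Acaca and Fasn are the 3 open points right of 0.

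Of the regulators, Insig1, the endoplasmic reticulum protein that retains SCAP and is itself an SREBP target, fell. It had 35.4 CPM in both shallow Sirpa-KO libraries (12 and 13 counts) against 63.2, 78.5 and 86.8 CPM (26, 27 and 30 counts) in Sirpa-WT. The Sirpa-KO values lay well under the lowest Sirpa-WT value, with a log2 fold change of -1.20 ± 0.32 (SE; adjusted p in edgeR = 0.00628). The deep library, at 91.4 CPM, stood above all 3 Sirpa-WT libraries. Srebf2, the gene of SREBP-2, had 41.3 and 19.0 CPM in shallow Sirpa-KO against 38.9, 64.0 and 37.6 CPM in Sirpa-WT. Its groups overlapped and its log2 fold change of -0.75 ± 0.37 was not called (edgeR adjusted p = 0.224). Its value hung on single libraries: it was -1.41 once Sirpa-KO replicate 2 was left out, -0.30 once Sirpa-KO replicate 3 was and -0.49 once Sirpa-WT replicate 2 was. Srebf1, the gene of SREBP-1, was under the filter, with 2 and 6 counts in shallow Sirpa-KO against 9, 6 and 9 in Sirpa-WT. Scap, the escort, had 19 pooled counts in shallow Sirpa-KO and 20 in Sirpa-WT, a mean of 26.4 against 18.7 CPM. The sterol carrier Stard4 had 7 in Sirpa-KO and 13 in Sirpa-WT, a mean of 9.98 against 11.5 CPM. For Scap and Stard4 the groups overlapped. Both were under the count filter, and neither was called when the filter was dropped.

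In the fatty acid branch, all 8 genes passed the filter and none was called in either direction. Acly, Acaca and Fasn, which turn citrate into palmitate, had log2 fold changes of -0.32 ± 0.30, 0.26 ± 0.34 and 0.27 ± 0.24 (SE). Fasn had 97.4 and 131 CPM in shallow Sirpa-KO against 87.4, 102 and 72.3 CPM in Sirpa-WT, and the groups overlapped. Its fold change became 0.44 when Sirpa-KO replicate 2 was omitted, 0.027 when Sirpa-KO replicate 3 was and 0.17 when Sirpa-WT replicate 3 was. Elovl6, which lengthens palmitate, had 62.0 and 54.4 CPM in shallow Sirpa-KO against 57.9 to 61.1 CPM in Sirpa-WT and a log2 fold change of -0.14 ± 0.30.
The 4 desaturases had log2 fold changes below 0, without a call. Scd2 had 331 and 416 CPM in shallow Sirpa-KO against 508, 471 and 368 CPM in Sirpa-WT, with overlapping groups and a log2 fold change of -0.39 ± 0.14 (edgeR adjusted p = 0.0805). Scd1, its neighbour on chromosome 19, stood at -0.47 ± 0.30. Fads1 and Fads2, the desaturases of polyunsaturated fatty acids, did not overlap between groups. Both passed the filter only through Sirpa-WT, which favours such a gap. Fads1 had 23.6 and 29.9 CPM in shallow Sirpa-KO against 58.3, 43.6 and 43.4 CPM in Sirpa-WT (log2 fold change -0.98 ± 0.38, edgeR adjusted p = 0.0989). Fads2 had 17.7 and 29.9 CPM in shallow Sirpa-KO against 46.2, 46.5 and 46.3 CPM in Sirpa-WT (log2 fold change -1.05 ± 0.39, edgeR adjusted p = 0.0851). Pooled over Sirpa-KO replicates 2 and 3, the counts were 19 for Fads1 and 17 for Fads2. Pooled over Sirpa-WT replicates 1 to 3, they were 54 and 51.

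Over all 6 libraries, with the deep library, labelled Sirpa-KO, included, edgeR called 0 of the 20 members and 0% of 5397 genes, of which 344 had an unadjusted p under 0.05. DESeq2 called 1 gene and 0 members. At an unadjusted p under 0.05, 2 members were lower, Nsdhl and Acat2, against 1.67% of all genes. The same 2 members were the ones whose 3 Sirpa-KO libraries all lay below each Sirpa-WT library, as in 10.2% of all genes. The log2 fold change over 6 libraries was -1.69 ± 0.37 for Nsdhl, -1.23 ± 0.40 for Acat2, -0.63 ± 0.47 for Cyp51, -0.64 ± 0.47 for Insig1 and -0.66 ± 0.47 for Dhcr7 (SE), with edgeR adjusted p from 0.574 to 0.591. Of the 20, 12 were below 0, against 47.3% of all genes, and the median was -0.11 for the members and 0.11 for all genes. With scaling by library size alone these medians were 0.18 and 0.36, so the sign of the members' median turned with the scaling over 6 libraries.

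The deep library differed from the others gene by gene in a way that splits the members. Its CPM exceeded each Sirpa-WT library for 26 of the 31 members. It lay below each of them for 3 (Acat2, Idi1 and Nsdhl) and within their range for 2 (Tm7sf2 and Dhcr7). The same was not counted over all genes, so these counts do not set the members apart from other genes. On a log2 scale, the deep library was set over the average shallow one and centred on the median gene. The ratios were -1.81 for Acat2, -1.72 for Idi1 and -1.86 for Nsdhl. A ratio more than 1 below the median was found in 41.2% of the genes tested. Such genes also leaned lower in the shallow Sirpa-KO libraries: their median log2 fold change was -0.19, and 9.64% of 2271 were called lower. Among the other 3239 genes the median was 0.15 and 0.926% were called lower. Of the 17 members in that second set, 14 were below 0, with a median of -0.60, and 2, Cyp51 and Insig1, were called. Without the 6 that passed the filter only through Sirpa-WT, 8 of 11 were below 0, with a median of -0.32. The ratio shares its 5 shallow libraries with the fold change, and why it splits the genes was not tested.

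**Figure D5:**
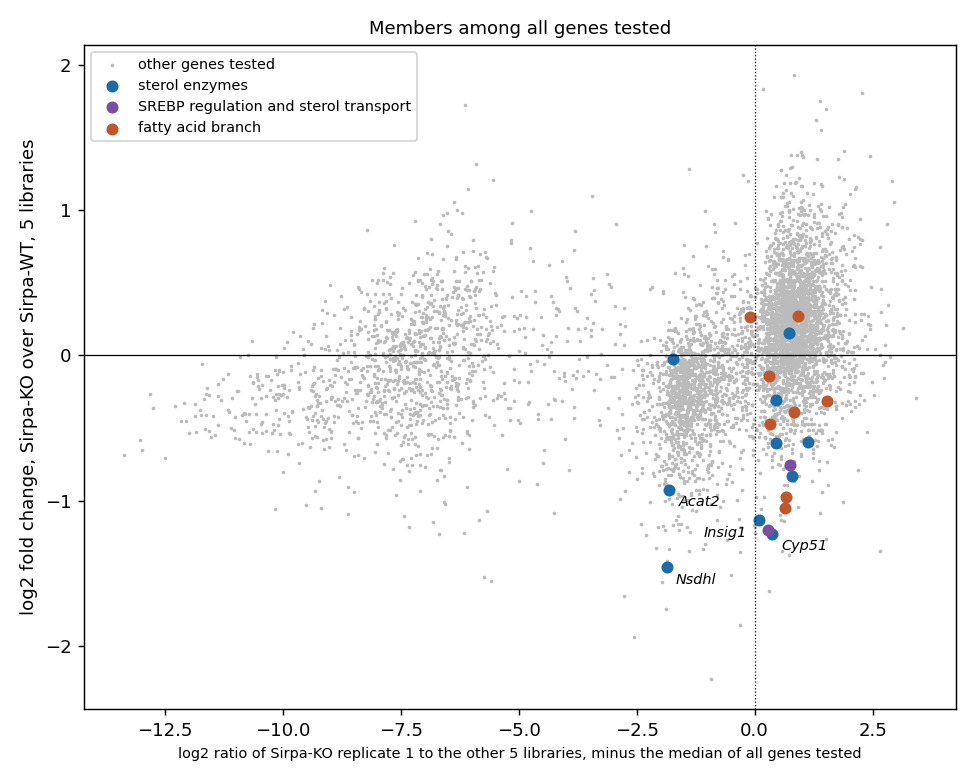
Log2 fold change over the 5 shallow libraries (vertical axis) against the centred log2 ratio of the deep Sirpa-KO library over the other 5 (horizontal axis), for all 5510 genes tested (grey) and the 20 members (colours). Acat2, Nsdhl and Idi1 lie in the cloud left of -1, and the other 17 members lie near or right of 0, most of them below the bulk of grey points there.

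With that trend removed from the 5-library fit, 4 members were again lower and 0 higher, against 1.31% of all genes called lower, but they were not the same 4. Nsdhl (-1.17 ± 0.25, edgeR adjusted p = 0.0006), Cyp51 (-1.34 ± 0.26, adjusted p = 0.000126) and Insig1 (-1.29 ± 0.32, adjusted p = 0.00505) were still called. Scd2 was now called, at -0.60 ± 0.14 (adjusted p = 0.00223), and Acat2 was not, at -0.64 ± 0.25 (adjusted p = 0.217). Msmo1, Dhcr7, Fads1 and Fads2 stood at -1.03 to -1.23, with edgeR adjusted p from 0.0692 to 0.0845. Of these, Dhcr7, Fads1 and Fads2 passed the filter only through Sirpa-WT. Leaving out single libraries also moved the calls: without Sirpa-KO replicate 2 only Cyp51 and Nsdhl of the 4 were called, and without Sirpa-KO replicate 3 only Acat2 and Nsdhl. Each of these fits has 1 Sirpa-KO library, which is assumed to vary like the Sirpa-WT libraries. Insig1 lost its call in both with its fold change all but unmoved, at -1.23 and -1.22. DESeq2 without independent filtering, an alternative added after seeing the data, called Nsdhl alone of the 20, with fold changes for the other 3 within 0.02 of those in edgeR. Among the 5-library alternatives that kept Sirpa-KO replicates 2 and 3, Nsdhl was the 1 member called under each that gave it an adjusted p. Its log2 fold change ran from -1.68 to -1.17 over all 15 5-library alternatives that gave it an adjusted p. Over 6 libraries, no alternative that kept the deep library called it.

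Counting could blur some members more than others. The counts took no account of strand and members differ in how much sequence they share with other genes. No 25-base word of Nsdhl, Ebp, Mvd, Acly or Fads1 transcripts occurs in another gene's GENCODE M21 transcripts. Cyp51 shared 4.73% of its words, mostly with Akap9, and Insig1 shared 4.46%. Acat2 shared 45.5%, all with its copy Acat3, which had at most 1 count in each shallow library and 12 in the deep one. The low Acat3 count does not show how reads that match both copies were counted. Idi1 shared 27.8%, Fdps 28.4%, Fdft1 34.1% and Acaca 34.8%, so their levels and that of Acat2 are less certain. Smaller shares were found for Tm7sf2 (15.2%), Hmgcs1 (13.8%) and Scap (11.8%). In the annotation the authors counted on, exons of Fdft1 overlap the opposite-strand gene Ctsb over 26.8% of their length, and those of Scap overlap a transcript over 18.9%. Several members are neighbours: Fads2 and Fads1 lie 81384 bases apart on chromosome 19, and Scd2 and Scd1 87586 bases apart on the same chromosome. Of the 8 tested genes nearest to Nsdhl (chromosome X, 72918557 to 72958514), Cyp51 (chromosome 5, 4081145 to 4104746), Insig1 (chromosome 5, 28071363 to 28078662) and Acat2 (chromosome 17, 12942890 to 12960747), 0 were called; coordinates are GRCm38.

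Other lipid genes were read from a list of 43, of which 19 were tested over 5 libraries. Of these 1, Fabp5, a fatty acid-binding protein, fell, and 0 rose, a share near the 4.52% of all genes called lower. Fabp5 had 1154 and 1129 CPM in Sirpa-KO replicates 2 and 3 against 1674, 1582 and 1670 CPM in Sirpa-WT, and 606 CPM in the deep library, a log2 fold change of -0.65 ± 0.10 (SE; adjusted p in edgeR = 5.69e-08). None of 4 other sterol synthesis genes, 2 SREBP processing genes, 3 genes of sterol uptake, export and storage, and 4 of fatty acid oxidation was called. The 4 other sterol synthesis genes had a median of 0.29. Of them, Ggps1 passed the count filter only through the shallow Sirpa-KO libraries and was bound to lean higher. Besides it, Nus1 lay above 0, and Lbr (-0.06) and Acat1 (-0.17) lay below. Ggps1 and Nus1 are isoprenoid genes named here after their values were seen. These genes lay higher in both shallow Sirpa-KO libraries than in each Sirpa-WT library, as did 26.3% of all genes. Ggps1 stood at 1.14 ± 0.48 (edgeR adjusted p = 0.136) and Nus1 at 0.64 ± 0.24 (edgeR adjusted p = 0.0907). The median log2 fold change of the 19 was -0.17. Over 6 libraries 0 of 18 were called.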

How the data were processed

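RNA was taken from cultured cells, 3 libraries per group, with a TruSeq Stranded mRNA kit per the labels' protocols. The deposited values are whole-number counts of read pairs for each gene. FeatureCounts 1.5.1 summed them over the exons of Ensembl release 75 (GRCm38) and no strand option was set, per the file headers. STAR 2.6.0 and Subread stand in the submitters' processing notes. Groups and replicate numbers were read from the titles. Symbols came from GENCODE M21 by gene identifier (37607 of 39179 genes).

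Genes were filtered with filterByExpr (minimum count 10, or 28.9 CPM over 5 libraries), scaled by TMM and tested in edgeR 4.0.16 (R 4.3.3) with glmQLFit (robust=TRUE) and glmQLFTest, 2-sided, and p-values were adjusted by Benjamini-Hochberg across the whole table. SE is the log2 fold change over the root of its F statistic. CPM used library totals, and FPKM divided it by the exon length in the files. The trend was a lowess curve (span 0.3) of each library's log2 CPM (prior count 2), less the gene's mean, on the deep-library ratio, used as offsets. Alternatives were other scalings and filters, DESeq2 1.42.0, robust=FALSE, the replicate number as a block, protein-coding genes only and each library left out. Full values were given to members called in either fit or with the trend removed, or whose groups did not overlap over 5 libraries. Members, lists and alternatives were chosen with earlier results of these data known. The fits were tested on simulated data. Over 5 libraries, 19 of 67 genes changed 1.5-fold, 42 of 67 changed 2-fold and 64 of 66 changed 4-fold were recovered. Of 134 calls, 9 were false. A change of 2-fold or less can thus be missed. Over 6 libraries, 61 of 67 genes changed 2-fold were recovered, whereas the real fit called 0 of 5397 genes. That recovery cannot be carried over to the real 6 libraries.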

Additional observations from a re-analysis of the deposited data

How the results depend on the processing

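Over 5 libraries, 4 members were called in edgeR, and 4 again with each other scaling or filter, robust=FALSE, protein-coding genes only, the trend removed and the replicate number as a block (4 calls). Library size alone moved the median of all genes by over 0.1, to 0.15, and that of the members to -0.47. Leaving out each library gave 2 to 5 calls. DESeq2 gave an adjusted p to 1 of the 20 members and called 0, since its independent filtering set the other 19 aside. Without that filtering, an alternative added after seeing the data, it called 1, Nsdhl (adjusted p = 0.00626), with Cyp51 at 0.0719 (log2 fold change -1.23), Insig1 at 0.266 (-1.22) and Acat2 at 0.271 (-0.93). Over 6 libraries the count was 0 in each alternative; leaving out single libraries gave 0 to 4, with 4 when Sirpa-KO replicate 1 was omitted. Over all genes, the 322 calls became 132 in DESeq2 (77 without independent filtering), 200 with protein-coding genes only, 111 with the trend removed, and 125, 127 and 214 without Sirpa-KO replicate 2, Sirpa-KO replicate 3 and Sirpa-WT replicate 2.

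The sign turned only in members that were not called. Idi1 (-0.03) stood at 0.11 with library size alone, 0.12 with the block, 0.25 with the trend removed, and 0.13, 0.034 and 0.018 without Sirpa-WT replicate 1, Sirpa-WT replicate 3 and Sirpa-KO replicate 3. Ebp (0.15) stood at -0.034 with the trend removed and -0.018 without Sirpa-KO replicate 3, Acaca (0.26) at -0.049 without Sirpa-KO replicate 3 and Fdps (-0.31) at 0.040 without Sirpa-KO replicate 2. Leaving out Sirpa-KO replicates 2 and 3 in turn also moved Sqle to -0.08 and -1.61, Hmgcs1 to -0.33 and -1.005, Acly to -0.19 and -0.52 and Elovl6 to -0.26 and -0.06, and leaving out Sirpa-WT replicates 1 and 3 moved Scd1 to -0.23 and -0.74. With single libraries left out, Idi1 reached -0.22 at its lowest, Fdps -0.88, and Ebp 0.27 and Acaca 0.55 at their highest. The cause was not tested.

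Whether the replicate numbers pair the libraries cannot be read from these data. Deviations of same-numbered libraries from their group means correlated at 0.024, -0.041 and 0.059 across genes. With each Sirpa-WT library, Sirpa-KO replicates 2 and 3 gave nearly the same value and the deep library the opposite sign. For Sirpa-WT replicate 3 the values were 0.065, 0.059 and -0.063. The deep library thus sets the Sirpa-KO deviations, and a pairing would not be seen.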
